A study of Mus musculus with 4 samples.

Results

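Transcripts of fibroblast growth factors (FGFs), their receptors and the Sprouty and Spred feedback inhibitors were examined in amacrine cells (retinal interneurons, most of them inhibitory) sorted from mouse retinas. Members were taken by gene symbol (every numbered Fgf gene, Fgfr1 to Fgfr4, Fgfrl1, Spry1 to Spry4 and Spred1 to Spred3), which gave 34 of the 55471 genes in the count table. They comprise 18 secreted FGFs, the 4 intracellular FGFs Fgf11 to Fgf14, 5 receptors, 4 Sprouty genes and 3 Spred genes. Cells came from C57BL6 mice at postnatal days 6 to 7 that carried Gbx2-CreERT2-IRES-EGFP, an allele expressing a tamoxifen-dependent Cre recombinase and the green protein EGFP from the Gbx2 locus, together with Ai9, a reporter that makes the red protein tdTomato after Cre has acted. Both fractions therefore share the Gbx2-CreERT2-IRES-EGFP allele, the reporter and tdTomato, and neither is a wild-type control. The tdTomato-labelled cells were split by GFP into a negative fraction (the submitters' cell type 1) and a positive fraction (their cell type 2). RNA came from 750 to 2500 cells a sample, and the labels give neither the time of tamoxifen nor whether replicate 2 is 1 animal in both fractions. Each fraction has 2 libraries here, replicates 2 and 6 of the GFP-negative one and replicates 2 and 3 of the GFP-positive one. Where 4 values or 2 pairs of values follow each other below, they stand in this order.

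FGFs are secreted ligands that bind receptor tyrosine kinases together with heparan sulfate chains, and the activated receptors signal through adaptors to the RAS-MAPK cascade. Sprouty and Spred proteins are feedback inhibitors that damp this cascade, and several of them are themselves transcribed in response to it. Fgf11 to Fgf14 are related in sequence but are not secreted; they remain inside the cell, where they bind voltage-gated sodium channels. In the retina, FGF signalling is known for its part in optic cup patterning, in neurogenesis and in glial and photoreceptor maintenance.

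Total gene counts were 41040667 to 44689917 a library, so that a count of 3 stood for 0.0631 to 0.0838 CPM (read counts per library of a common size, here scaled by TMM, which corrects for composition). Gbx2, the gene that drives the sort, stood at 28.7 and 55.5 CPM in the GFP-negative libraries and at 602 and 496 CPM in the GFP-positive libraries (log2 fold change 3.71 ± 0.44 (SE), edgeR adjusted p = 0.0118), with adjusted p of 0.0711 without replicate 6 of the GFP-negative fraction and 0.0603 without replicate 3 of the GFP-positive fraction. Pan-amacrine markers summed to 5647 and 7992 against 4812 and 3698 CPM, and 5 of 15 tested were called lower in the GFP-positive fraction. Without those 5 (Tfap2c, Gad1, Gad2, C1ql1 and C1ql2) the sums overlapped, at 3544 and 4652 against 4498 and 3550 CPM. Of the 15, 12 had a negative log2 fold change (list median -1.49). The 16 rod photoreceptor markers, all tested and none called, summed to 9308 and 2680 against 10611 and 17417 CPM, which is above the amacrine sum in every library except GFP-negative replicate 6. The list of 16 Muller glia and late progenitor markers summed to 1982 and 2271 against 1037 and 1259 CPM. Dkk3, the 1 gene of that list called lower (1008 and 1577 against 244 and 131 CPM, edgeR adjusted p = 0.0342), carried this difference: without it the sums were 974 and 693 against 794 and 1128 CPM, and 12 of the 16 markers had a positive log2 fold change (list median 0.31). The 12 bipolar markers summed to 1101 and 441 against 1346 and 1876 CPM, and the 6 astrocyte markers to 46.2 and 11.5 against 6.21 and 11.1 CPM. The part of these other cell types in the results below was not tested. In bulk samples, fewer cells of a type and less RNA per cell cannot be told apart.

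Of the 34 members, 25 passed the filter on low counts and were tested with edgeR's quasi-likelihood test over 17940 genes. Fgf5 was the only member called, lower in the GFP-positive fraction, against 1.1% of all genes tested called in either direction, 0.87% called lower and 0.234% called higher. At an unadjusted p under 0.05 there were 6 members, all lower, against 12.6% of all genes in either direction and 7.34% lower. DESeq2 called 3 members, and limma-voom and edgeR's legacy fit called 0, where they called 4.43%, 0.513% and 0.268% of all genes. The log2 fold change (GFP-positive minus GFP-negative throughout) was negative for 17 of the 25 tested members, beside 47.6% of all genes. Its median was -0.36 over these members and 0.04 over all genes. In 13 of the 25 the CPM ranges of the fractions did not overlap, 11 with the GFP-positive libraries lower and 2 with them higher, where 43.8% of all genes tested had separate ranges, 21.3% lower and 22.5% higher. With 2 libraries a fraction, an exact permutation test of 1 gene cannot go below p = 0.333, so the tests below rest on the variance model fitted over all genes.

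**Figure D1:**
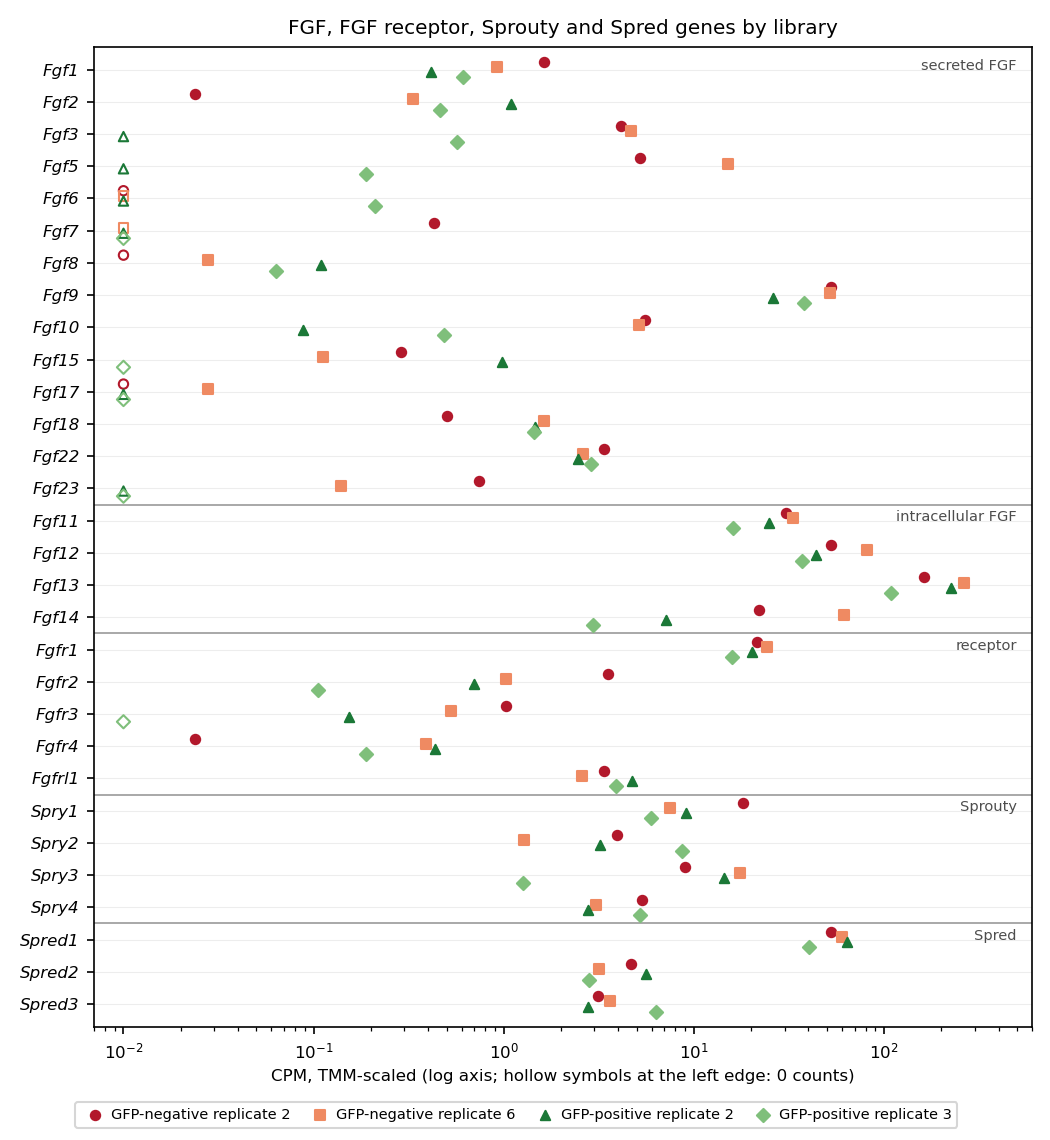
CPM on a log axis (TMM-scaled) for the 30 members with at least 1 count, grouped by class, with 1 symbol for each of the 4 libraries and hollow symbols at the left edge for 0 counts. Fgf13 reaches 263 CPM and lies farthest right. Fgf3, Fgf5, Fgf10, Fgf14 and Fgfr3 are among the genes whose GFP-positive symbols lie far to the left of the GFP-negative ones.

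The secreted ligands that differed most between the fractions were Fgf5, Fgf10 and Fgf3, and Fgf9 was the ligand with the highest level. For these 4 genes the 250 bases before the RefSeq transcription start (GRCm38.p6, 5′ to 3′ on the gene's strand) are shown, so that the starts of genes present mainly in one fraction can be compared with that of a ligand present in both. The windows are chr5:98253934-98254183 (plus strand) for Fgf5, chr13:118714449-118714698 (plus) for Fgf10, chr7:144838362-144838611 (plus) for Fgf3 and chr14:58072436-58072685 (plus) for Fgf9. Capitals mark matches, on either strand, to 5 short motifs: the E-box CANNTG, the homeodomain core TAATTA, the T-box core GGTGTGA, the ETS core CCGGAAG and the TATA box TATAAA.
Fgf5: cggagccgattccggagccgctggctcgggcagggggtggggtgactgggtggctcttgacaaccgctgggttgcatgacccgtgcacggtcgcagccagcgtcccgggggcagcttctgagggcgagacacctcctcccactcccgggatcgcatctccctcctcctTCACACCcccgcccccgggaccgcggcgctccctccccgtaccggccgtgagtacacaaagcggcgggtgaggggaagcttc
Fgf10: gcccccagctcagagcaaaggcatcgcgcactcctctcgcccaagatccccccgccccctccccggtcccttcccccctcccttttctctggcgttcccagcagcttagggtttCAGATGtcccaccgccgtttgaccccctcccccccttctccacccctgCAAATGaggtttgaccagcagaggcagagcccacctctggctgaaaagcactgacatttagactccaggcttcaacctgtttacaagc
Fgf3: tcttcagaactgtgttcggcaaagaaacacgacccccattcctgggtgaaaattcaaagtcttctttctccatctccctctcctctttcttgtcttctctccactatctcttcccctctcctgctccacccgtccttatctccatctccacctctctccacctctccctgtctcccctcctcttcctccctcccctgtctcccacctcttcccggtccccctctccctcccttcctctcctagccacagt
Fgf9: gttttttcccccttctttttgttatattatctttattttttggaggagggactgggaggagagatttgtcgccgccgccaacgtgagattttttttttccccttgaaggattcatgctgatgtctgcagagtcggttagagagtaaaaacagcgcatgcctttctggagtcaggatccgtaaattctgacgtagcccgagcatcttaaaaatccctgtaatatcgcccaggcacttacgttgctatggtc
The Fgf5 window held 1 T-box core, on the opposite strand at position -82 from the start, and 3.33% of all 32851 RefSeq windows of this length hold one. The Fgf10 window held 2 E-boxes, at -136 and -88, a motif present in 66.2% of windows. The Fgf3 and Fgf9 windows held none of the 5 motifs, and no bases were shared between matches. The homeodomain core, the ETS core and the TATA box occur in 4.84%, 6.91% and 12.4% of all windows. GC content was 70.8% for Fgf5, with 24 CpG dinucleotides, and 44.8% for Fgf9, with 11, beside medians of 52.4% and 6 over all windows. Fgf10 and Fgf3 lay between them in GC content, at 61.2% and 55.2%, with 8 and 4 CpG. The RefSeq start of Fgf5 coincides with the GENCODE gene start, while those of Fgf3, Fgf9 and Fgf10 lie 529 bp, 2.14 kb and 44.9 kb inside the GENCODE gene. A match describes the letters only, and no factor's binding was measured here.

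Fgf5, a secreted FGF known as a brake on hair growth, was detected almost only in the GFP-negative fraction. The gene (ENSMUSG00000029337, GRCm38 chr5:98254184-98277030, plus strand) had 219 and 541 counts among GFP-negative cells and 0 and 9 among GFP-positive cells. These are 5.24 and 15.1 CPM against 0 and 0.189 CPM, so the GFP-negative mean was 107-fold higher (10.2 ± 6.98 against 0.0946 ± 0.134 CPM, SD, n = 2 each). The ranges were far apart, although the GFP-negative libraries differed from each other by more than the lower of them differed from the GFP-positive libraries. Fgf5 had a log2 fold change of -6.67 ± 1.16 (SE, edgeR adjusted p = 0.0278). The call depends on the variance model and on single libraries. It was lost with edgeR's legacy quasi-likelihood fit (adjusted p = 0.174), which was run first and replaced after both results had been seen, and with limma-voom (adjusted p = 0.356). Leaving out 1 library ended it in 3 of 4 cases: without replicate 6 of the GFP-negative fraction (log2 fold change -5.72, adjusted p = 0.251), and without replicate 2 (-5.74, 0.112) or 3 (-11.7, 0.168) of the GFP-positive fraction. The value of -11.7 rests on a lone library at 0 counts and is no bound. Without GFP-negative replicate 2 the call held (log2 fold change -7.31, adjusted p = 0.0182), and DESeq2 on all libraries gave an adjusted p of 8.2e-08.

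Fgf10 and Fgf3 belong to a ligand group that acts mainly on epithelial receptor forms, and are known for limb and lung budding and for inner ear development. Fgf10 (ENSMUSG00000021732, chr13:118669791-118792115, plus strand) had 230 and 184 against 4 and 23 counts, or 5.50 and 5.14 against 0.0875 and 0.484 CPM. The GFP-negative libraries were close to each other, and their mean was 18.6-fold higher. Its log2 fold change of -4.19 ± 0.91 (SE) missed the threshold (edgeR adjusted p = 0.0788), while DESeq2 called the gene (adjusted p = 0.00118). Over the settings that tested it, its adjusted p ran from 0.00118 to 0.390, and the log2 fold change was -3.47 without GFP-positive replicate 2 and -5.88 without GFP-positive replicate 3.

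Fgf3 (ENSMUSG00000031074, chr7:144838083-144844436, plus strand) had 172 and 168 against 0 and 27 counts, or 4.11 and 4.69 against 0 and 0.568 CPM. Again the ranges did not overlap, and the GFP-negative mean was 15.5-fold higher (log2 fold change -3.91 ± 1.04 (SE), edgeR adjusted p = 0.155). Without GFP-positive replicate 2 the log2 fold change was -2.97. Fgf3 stands at the head of a cluster of 3 FGF genes. Fgf4, which begins 2.93 kb beyond it, had 0 counts in all libraries, which allows up to 0.0631 to 0.0838 CPM. Fgf15, the mouse endocrine FGF that lies a further 31.3 kb on, had 0.287 and 0.112 CPM in the GFP-negative libraries and 0.984 and 0 CPM in the GFP-positive ones. The fractions overlapped for Fgf15, so the pattern of Fgf3 was not seen in either neighbour at this depth.

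Fgf9, a ligand known in the developing eye from the boundary of neural retina and pigment epithelium, was the ligand with the highest level per length. In RPKM (CPM per kilobase of exon) it stood at 11.3 and 11.1 in the GFP-negative libraries and at 5.58 and 8.15 in the GFP-positive libraries. Its share of the summed RPKM of all secreted FGFs was 58.8% and 48.0% in the GFP-negative and 65.2% and 71.9% in the GFP-positive libraries. On the CPM scale Fgf9 (ENSMUSG00000021974, chr14:58070547-58112720, plus strand) had 52.5 and 51.7 against 26.0 and 37.9, lower in both GFP-positive libraries. The log2 fold change of -0.71 ± 0.33 (SE) missed the threshold (edgeR adjusted p = 0.425).

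The remaining tested ligands were low. Fgf22, known as an organiser of presynaptic terminals, had 2.45 to 3.35 CPM in the 4 libraries with overlapping fractions (log2 fold change -0.17). Its exons share 82 bp with Rnf126 on the opposite strand, and the use of strand in counting is not stated in the labels, so some of its reads may belong to Rnf126. Fgf1, the acidic FGF, had 1.63 and 0.922 CPM against 0.416 and 0.610 CPM. Fgf2, the basic FGF, went the other way, with 0.0239 and 0.335 CPM in the GFP-negative and 1.09 and 0.463 CPM in the GFP-positive libraries (log2 fold change 2.18 ± 1.28 (SE), edgeR adjusted p = 0.534). It was the only tested ligand with both GFP-positive libraries above both GFP-negative ones, but 640 bp of its exons overlap Nudt6 on the opposite strand, which had 41 to 82 counts a library. Fgf18, a ligand known from bone and cartilage growth, had 0.502 to 1.62 CPM with overlapping fractions.

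Of the 9 ligands that were not tested, Fgf4, Fgf16, Fgf20 and Fgf21 had no count in any library. Fgf23, an endocrine FGF that regulates phosphate, had 31 and 5 against 0 and 0 counts. Taking 3 counts over the GFP-positive fraction as the floor, it was at least 14.4-fold lower there. That bound rests largely on GFP-negative replicate 2, without which it was 4.34-fold. Without GFP-negative replicate 6 it was 23.0-fold, and without GFP-positive replicate 2 or 3 it was 7.35-fold or 7.07-fold. Fgf7, a keratinocyte growth factor, had 18 counts in GFP-negative replicate 2 and 0 elsewhere, and Fgf6, a muscle FGF, had 10 counts in GFP-positive replicate 3 and 0 elsewhere, so each rests on 1 library. Fgf8, the ligand of brain and limb organisers, had 0 and 1 against 5 and 3 counts. Its relative Fgf17 had 1 count in all.

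Summed over all 18 secreted FGFs, the level was 19.2 and 23.2 RPKM in the GFP-negative and 8.57 and 11.3 RPKM in the GFP-positive libraries. The fractions did not overlap in this sum, to which Fgf9 gave the largest share in every library. Fgf5 made up 10.9% and 26.0% of the sum in the GFP-negative libraries and 0% and 0.67% in the GFP-positive libraries. The median log2 fold change of the 9 tested ligands was -0.71. By non-overlapping ranges 5 were lower and 1 was higher, beside 21.3% lower and 22.5% higher over all genes tested.

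**Figure D2:**
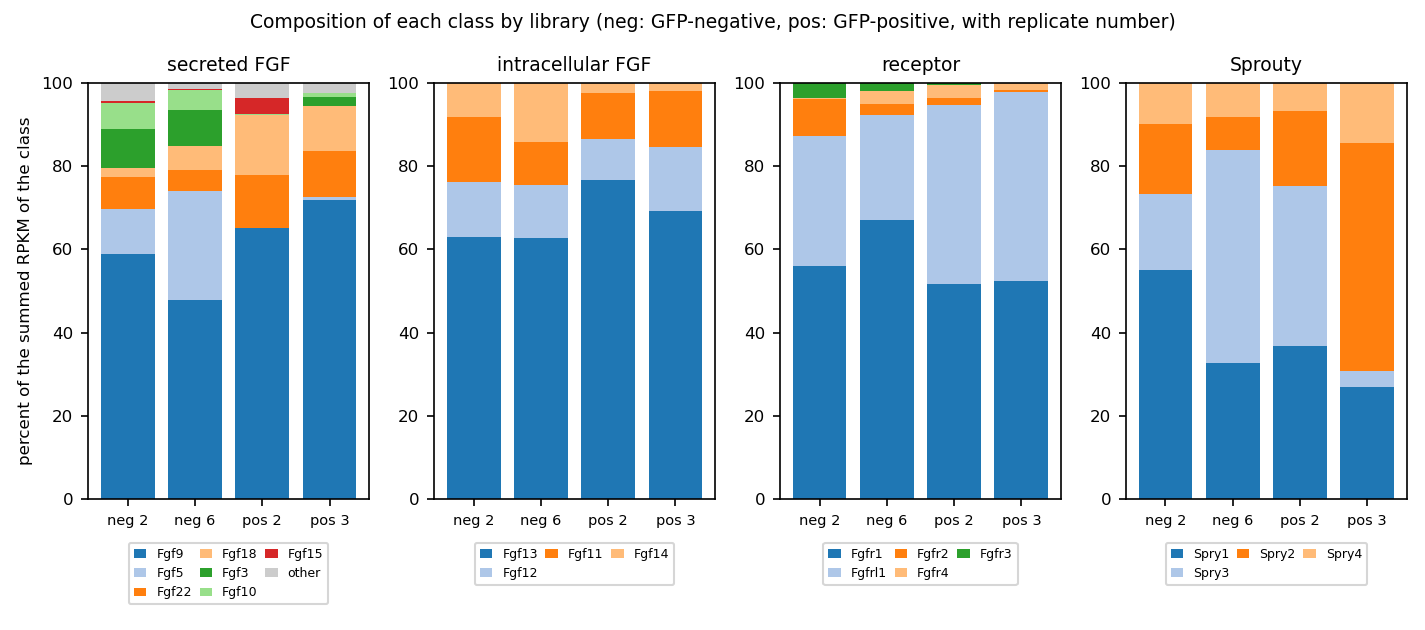
Stacked bars give the percent of the summed RPKM of a class that each gene made up, in the 4 libraries (neg and pos with the replicate number), for secreted FGFs, intracellular FGFs, receptors and Sprouty genes. Fgf9, Fgf13 and Fgfr1 are the widest bands of their classes in every library, whereas the Sprouty class has a different leading gene from library to library, with Spry2 at 54.7% in GFP-positive replicate 3.

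The intracellular FGFs were more abundant per length than the secreted ones, at 64.1 and 104 RPKM summed in the GFP-negative and 72.6 and 38.9 RPKM in the GFP-positive libraries. Fgf13, which binds sodium channels and microtubules, made up 63.0% and 62.8% of this sum in the GFP-negative and 76.7% and 69.3% in the GFP-positive libraries. Fgf13 (ENSMUSG00000031137, chrX:59062145-59568071, minus strand) stood at 162 and 263 CPM against 224 and 108 CPM, the highest CPM of all 34 members. The fractions overlapped (log2 fold change -0.36 ± 0.42 (SE)), and the libraries of each fraction differed from each other by more than the fraction means.

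Fgf14, the gene mutated in a spinocerebellar ataxia, differed most within this class. The gene (ENSMUSG00000025551, chr14:123977907-124677127, minus strand) had 21.9 and 61.4 against 7.17 and 2.94 CPM. Both GFP-positive libraries lay below both GFP-negative ones, and the means differed 8.24-fold. Fgf14 had a log2 fold change of -3.04 ± 0.62 (SE), with an edgeR adjusted p of 0.0700. It passed the threshold with RLE scaling (adjusted p = 0.0372), with DESeq2 (8.7e-05) and without GFP-negative replicate 2 (0.0233), and its adjusted p reached 0.597 over all settings. Leaving out 1 library moved the log2 fold change to -3.67 and -2.12 (without GFP-negative replicate 2 or 6) and to -3.84 and -2.54 (without GFP-positive replicate 2 or 3). Its order over the libraries was that of the pan-amacrine sum given above and the reverse of the rod and bipolar sums. Fgf11, Fgf12 and Fgfr1 had the same order as Fgf14. The part of the RNA of these cell types in the values was not tested. As a share of the 4 intracellular FGFs, Fgf14 made up 8.19% and 14.1% in the GFP-negative and 2.36% and 1.81% in the GFP-positive libraries.

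Fgf12, another sodium channel partner, had 52.6 and 81.5 CPM against 44.0 and 36.9 CPM (log2 fold change -0.73 ± 0.34 (SE), edgeR adjusted p = 0.419). Fgf11 had 30.4 and 33.2 CPM against 24.8 and 16.1 CPM (log2 fold change -0.64 ± 0.37 (SE), edgeR adjusted p = 0.535). For both genes all GFP-negative values were above all GFP-positive ones, by less than the test could call. None of the 4 intracellular FGFs was called by edgeR (1 at an unadjusted p under 0.05, Fgf14), beside 1.1% (12.6%) of all genes tested. All 4 had a negative log2 fold change, beside 47.6% of all genes tested, with a median of -0.68. Of their partners, 7 of 8 voltage-gated sodium channel genes were tested and edgeR called none (1 at an unadjusted p under 0.05), with a median log2 fold change of -0.37. Scn3b, an auxiliary subunit, had 169 and 402 CPM against 136 and 44.9 CPM (log2 fold change -1.65 ± 0.58 (SE), edgeR adjusted p = 0.285). Its highest and lowest values fell in the same libraries as those of Fgf11 to Fgf14, Fgfr1, Spry3 and the pan-amacrine sum. Scn3a, a pore-forming subunit, had a log2 fold change of -0.37 with overlapping fractions.

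**Figure D3:**
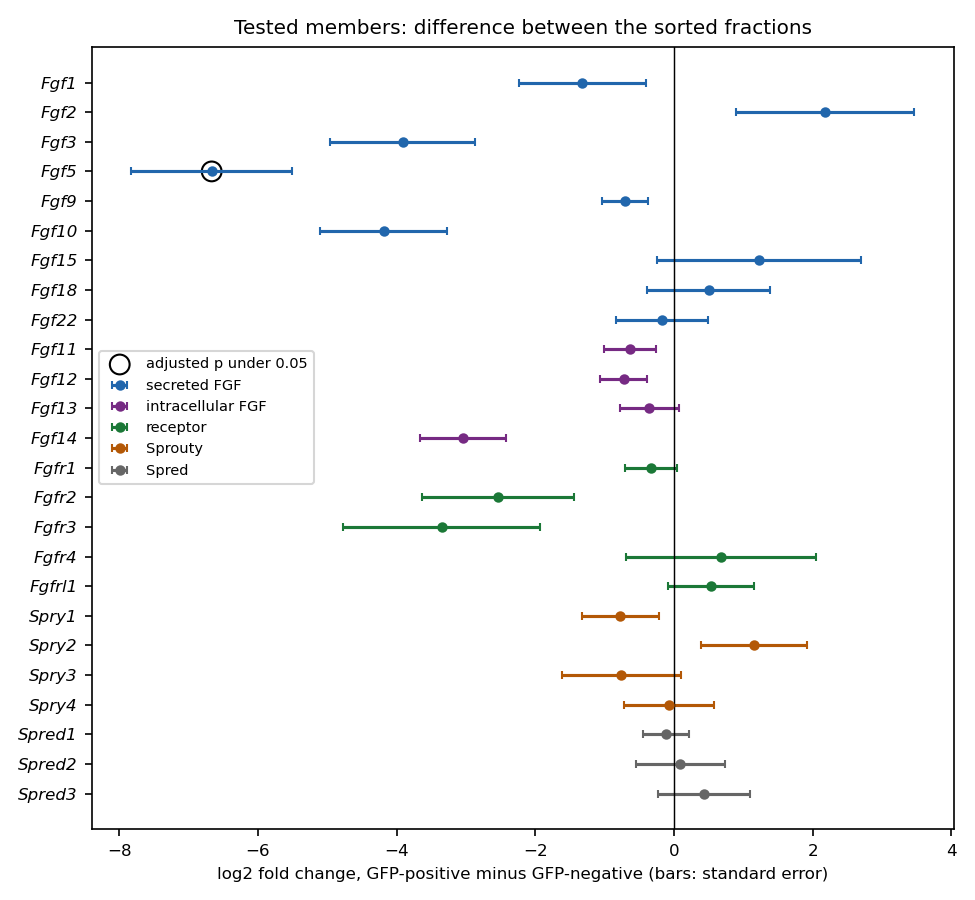
The log2 fold change (GFP-positive minus GFP-negative) with its standard error for the 25 tested members, coloured by class, with a ring around the member whose edgeR adjusted p was under 0.05. Fgf5 at -6.67 carries the only ring, Fgf10, Fgf3, Fgfr3 and Fgf14 also lie below -3, and the Sprouty and Spred genes lie between -0.77 and 1.15.

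Among the receptors, Fgfr1 was the most abundant per length in every library. Fgfr1 (ENSMUSG00000031565, chr8:25513654-25575718, plus strand), an FGF receptor tyrosine kinase, stood at 21.5 and 24.2 CPM in the GFP-negative and at 20.3 and 15.9 CPM in the GFP-positive libraries. Its log2 fold change was -0.34 ± 0.37 (SE, edgeR adjusted p = 0.773), and the nearest libraries of the fractions lay closer than the GFP-positive libraries did to each other. Fgfr1 made up 56.1%, 67.0%, 51.7% and 52.4% of the receptor RPKM in the 4 libraries. Fgfrl1, a receptor that lacks the kinase domain, came next, with 31.2% and 25.3% against 43.0% and 45.5%. In CPM Fgfrl1 had 3.37 and 2.57 in the GFP-negative and 4.75 and 3.89 in the GFP-positive libraries, the only receptor with both GFP-positive values above the GFP-negative ones (log2 fold change 0.53 ± 0.62 (SE), edgeR adjusted p = 0.785).

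Fgfr2, the receptor whose epithelial form binds Fgf10 and Fgf3, had 3.51 and 1.03 CPM in the GFP-negative and 0.700 and 0.105 CPM in the GFP-positive libraries (log2 fold change -2.54 ± 1.10 (SE), edgeR adjusted p = 0.386). Fgfr3 had 1.03 and 0.531 against 0.153 and 0 CPM (log2 fold change -3.35 ± 1.42 (SE), edgeR adjusted p = 0.363). Both were low and lower in each GFP-positive library, and neither passed the threshold. The astrocyte marker sum given above was likewise highest in GFP-negative replicate 2, as was Fgfr3, and its part in these values was not tested. The annotated Fgfr2 exons share 314 bp with Ctbp2 on the same strand, whose counts of 7640 to 18242 a library were higher in both GFP-positive libraries. Fgfr4 had 0.0239 to 0.438 CPM with overlapping fractions. The receptor sum was 3.88 and 3.66 RPKM against 3.97 and 3.07 RPKM, so the fractions overlapped for the class as a whole.

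None of the 4 Sprouty genes was called by edgeR (0 at an unadjusted p under 0.05), beside 1.1% (12.6%) of all genes tested. None had separate fractions, beside 43.8% of all genes tested, and the order of the Sprouty genes changed between libraries. Spry1 had 18.1 and 7.48 CPM against 9.12 and 5.95 CPM (log2 fold change -0.77 ± 0.56 (SE), edgeR adjusted p = 0.618). Spry2 had 3.94 and 1.28 CPM against 3.19 and 8.64 CPM (log2 fold change 1.15 ± 0.77 (SE), edgeR adjusted p = 0.590). The annotation places Spry3 on the scaffold GL456233.1. Spry3 had 8.99 and 17.5 CPM against 14.3 and 1.26 CPM (log2 fold change -0.76 ± 0.86 (SE), edgeR adjusted p = 0.778). GFP-positive replicate 3 was the lowest library for Spry3 and the highest for Spry2, far from GFP-positive replicate 2 in both. Spry4 had 5.31 and 3.07 CPM against 2.78 and 5.22 CPM. Per length the leading Sprouty gene was Spry1 in GFP-negative replicate 2 with 55.2%, Spry3 in GFP-negative replicate 6 with 51.2% and in GFP-positive replicate 2 with 38.6%, and Spry2 in GFP-positive replicate 3 with 54.7%. The summed level varied less, at 11.3, 7.86, 8.55 and 7.58 RPKM in the 4 libraries.

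The 3 Spred genes, which recruit the RAS inhibitor neurofibromin to the membrane, gave overlapping fractions and no edgeR call (0 at an unadjusted p under 0.05). Over all genes tested, 43.8% had separate ranges, 1.1% were called and 12.6% had an unadjusted p under 0.05. Spred1 (chr2:117121374-117182279, plus strand) had 52.8 and 59.9 CPM in the GFP-negative and 63.5 and 40.5 CPM in the GFP-positive libraries (log2 fold change -0.12 ± 0.33 (SE), edgeR adjusted p = 0.929). It made up 78.7% to 87.4% of the Spred RPKM. Spred2 had 2.82 to 5.62 CPM and Spred3 2.78 to 6.29 CPM, with log2 fold changes of 0.09 and 0.43. Spred3 shares 202 bp of exon with Ggn on the opposite strand. Spred1 and all 4 Sprouty genes are thus detected in each library, and differences between the fractions in them were not larger than the spread within a fraction.

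**Figure D4:**
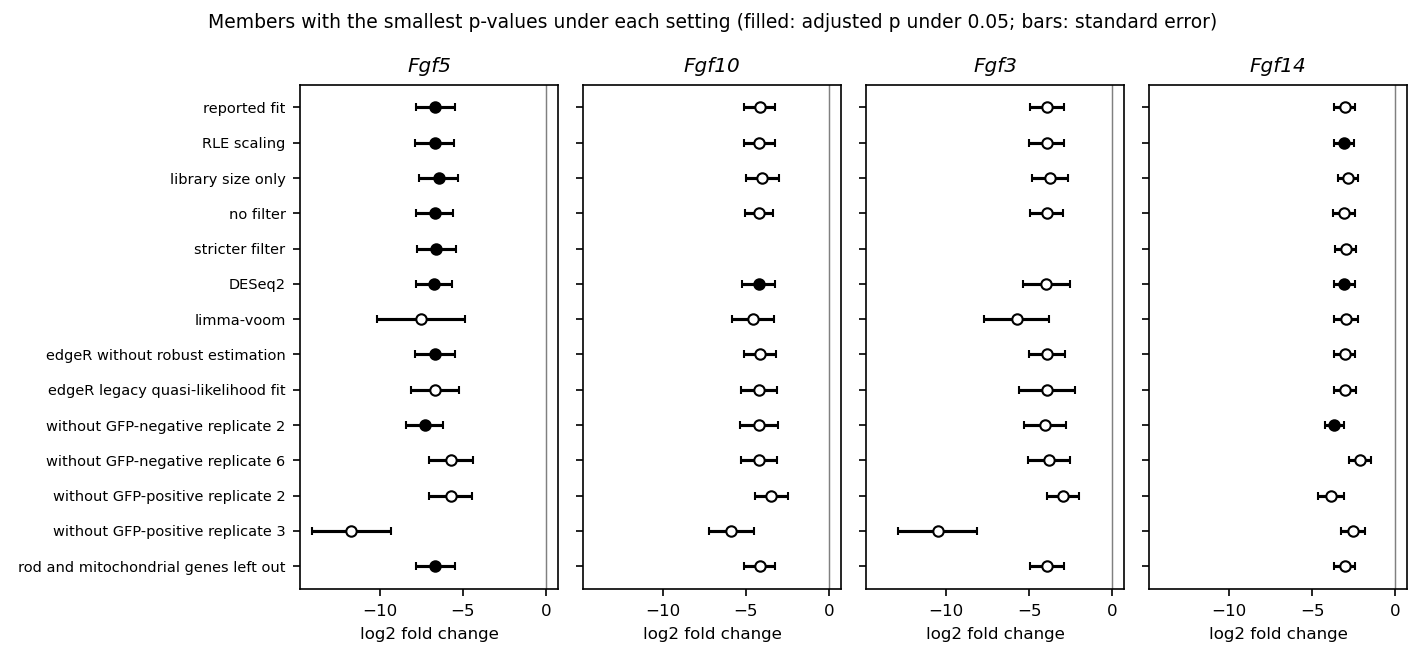
The log2 fold change with its standard error for Fgf5, Fgf10, Fgf3 and Fgf14 under the reported fit and each alternative setting, with filled symbols where the adjusted p was under 0.05. All values lie left of 0, and filled symbols appear for Fgf5 in most settings, for Fgf14 in 3 and for Fgf10 in 1.

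The other genes of FGF signalling were read from lists of known components. Over all genes tested, edgeR called 1.1%, and 12.6% had an unadjusted p under 0.05. Of 13 co-receptors and adaptors, 12 were tested and edgeR called none (0 at an unadjusted p under 0.05, median log2 fold change -0.01), and the adaptor Grb2 had 109 and 157 CPM against 127 and 99.7 CPM. All 12 RAS-MAPK genes were tested and edgeR called none (0 at an unadjusted p under 0.05, median -0.18). Of the 16 transcriptional targets and other feedback genes none was called either (4 at an unadjusted p under 0.05, median 0.35). Fos and Egr1, the immediate early genes that led this list per length, were lowest in GFP-negative replicate 6, at 28.2 and 24.5 CPM, against 111 to 139 and 127 to 161 CPM in the other 3 libraries, and both had overlapping fractions. The 4 genes were Flrt2 and Flrt3, with higher GFP-positive values, and Myc and Phlda1, with lower ones. Myc, a transcription factor of cell growth, had 7.00 and 7.29 against 1.09 and 2.08 CPM (log2 fold change -2.16 ± 0.65 (SE), edgeR adjusted p = 0.215). Phlda1 had 12.3 and 16.2 against 4.22 and 4.88 CPM (log2 fold change -1.65 ± 0.48 (SE), edgeR adjusted p = 0.209). Flrt3 and Flrt2 encode transmembrane proteins that bind FGF receptors. Flrt3 had 50.7 and 69.2 CPM against 205 and 101 CPM (log2 fold change 1.35 ± 0.40 (SE), edgeR adjusted p = 0.207). Flrt2, named like Myc and Phlda1 after its values were seen, had 57.9 and 64.3 CPM against 355 and 138 CPM (log2 fold change 2.01 ± 0.45 (SE), edgeR adjusted p = 0.0932). Both GFP-positive libraries were thus above both GFP-negative ones for Flrt2 and Flrt3 and below them for Myc and Phlda1, without a call.

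The single call in these lists, beside 1.1% called over all genes tested, was Ndst3, an enzyme that modifies heparan sulfate by N-deacetylation and N-sulfation. Its list held 14 heparan sulfate and FGF-binding genes, of which 13 were tested (median -0.25). Ndst3 (chr3:123526166-123690853) was lower in the GFP-positive fraction, with 27.0 and 33.7 CPM against 7.11 and 5.15 CPM (log2 fold change -2.31 ± 0.42 (SE), edgeR adjusted p = 0.0439). The libraries of each fraction were close to each other and the fractions far apart. The call was nonetheless lost without any 1 library, with adjusted p of 0.0584 to 0.374, with library size alone (0.0612), with no filter (0.0728), with limma-voom (0.0772) and with the legacy fit (0.102). Hs6st2, a heparan sulfate 6-O-sulfotransferase named after its values were seen, had 27.7 and 46.2 CPM against 8.49 and 2.40 CPM (log2 fold change -2.77 ± 0.59 (SE), edgeR adjusted p = 0.0788). The most abundant genes of the list per length, Ndst1, Ext2 and Fgfbp3, had log2 fold changes of 0.09, 0.01 and 0.13 with overlapping fractions.

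**Figure D5:**
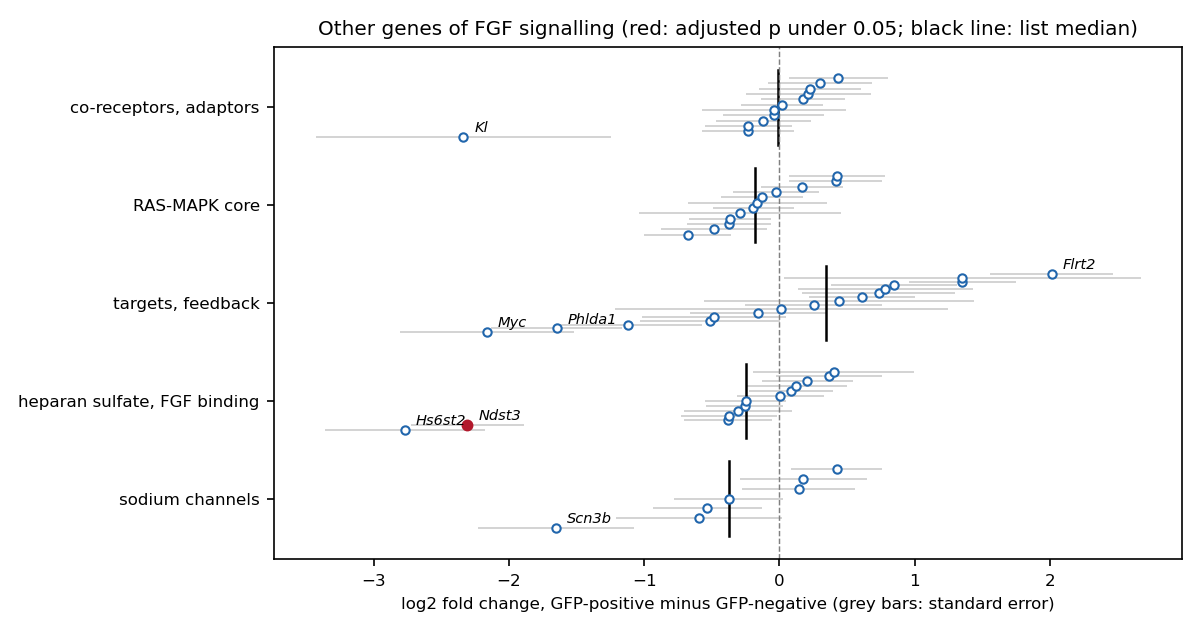
Each point is the log2 fold change (GFP-positive minus GFP-negative, grey bars for the standard error) of 1 gene in 5 lists of FGF signalling partners, with the list median as a black line and genes beyond 1.5 named. Ndst3 at -2.31 is the only red point, meaning an adjusted p under 0.05, and the list medians lie between -0.37 and 0.35.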

How the data were processed

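RNA-seq libraries made with an ultra-low-input cDNA kit were compared between 2 GFP-negative and 2 GFP-positive samples, which the series text describes as biological replicates. The sources used here state 4 replicates and 3 litters, and the litter of each library is not among the labels. The authors deposited raw read counts per gene, and these counts were used; the submitters' processing notes name Trimmomatic, STAR 2.7.3a, MultiQC, limma and GRCm38, without saying what each did. Neither the counting tool nor its strand setting is given in the sources used here. A second deposited table held the same counts times a constant per library and was not used. Coordinates and exon lengths came from GENCODE mouse release 21, which held 55230 of the 55471 gene IDs; 27 symbols turned into dates were looked up by ID.

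The test was edgeR's (version 4.0.16, R 4.3.3), with TMM scaling, a filter by filterByExpr at a count of 10 and a total of 15, robust glmQLFit in its newer, non-legacy form, glmQLFTest, and Benjamini-Hochberg adjustment over 17940 genes with a call under 0.05. The fit had 2 residual degrees of freedom, and the legacy form was the default of this version. The newer form was chosen after both results had been seen, because it matched the fit of an earlier account of these data; it gives 198 calls where the legacy form gives 48. Each SE was derived from the log2 fold change and its F statistic. RPKM is CPM over exonic length. Floors of 3 counts cover counting error only: without molecular identifiers, reads are not independent molecules. The scripts were tested on simulated data.

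The members and lists were chosen with earlier results of these data known. Every member with at least 5 CPM in a fraction or a call is given in all 4 libraries, and of the other lists the called and up to 3 most abundant genes, some of which are not reported here. RefSeq promoters matched 25 members by symbol; the 4 printed were chosen after their values were seen. Alternatives were RLE and library-size scaling, no filter, over 5 CPM in 2 libraries, DESeq2 1.42.0, limma-voom 3.58.1, no robust estimation, the legacy fit, leaving out rod and mitochondrial genes before scaling, and leaving out each library.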

Additional observations from a re-analysis of the deposited data

How the results depend on the processing

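The number of members called was 1 in the reported fit, 2 with RLE scaling (Fgf5 and Fgf14), 3 with DESeq2 (with Fgf10), 0 with limma-voom and 0 with the legacy fit, and 0 to 2 when each library was left out. Over all genes 198 calls became 106 with no filter, 794 with DESeq2, 92 with limma-voom and 48 with the legacy fit. The legacy fit was run first, and the reported fit replaced it after both results had been seen. With a library left out, the calls over all genes ran from 1 to 336. There were 336 and 1 without replicates 2 and 6 of the GFP-negative fraction. Without replicates 2 and 3 of the GFP-positive fraction there were 108 and 5. Members with separate fractions numbered 13 of 25, 6 of 11 under the stricter filter, which did not test Fgf3 and Fgf10, and 17 to 22 when a library was left out, where a lone library in a fraction separates more easily. A lone library is assumed to vary like those of the other fraction. The causes of the other changes were not tested.

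Of 211 values for members under the other settings, 203 kept their direction and side of the threshold, and of 100 with a library left out, 83 did. Only Fgf5 could lose a call, and all settings drew on the same libraries, so these counts are no measure of replication. In log2 fold change, Fgf15 turned to -0.996 with limma-voom. Spry4 and Spred1 turned to 0.0837 and 0.0478 with library size alone, which moved the median log2 fold change of all genes by 0.17. With a library left out, the log2 fold change changed sign for 9 members: Fgf13 (-0.996 to 0.0681), Fgf15 (-6.13 to 2.24), Fgf18 (-0.21 to 1.54), Fgfr4 (-0.38 to 3.56), Spry3 (-3.41 to 0.11), Spry4 (-0.60 to 0.33), Spred1 (-0.50 to 0.17), Spred2 (-0.51 to 0.50) and Spred3 (-0.29 to 0.88). The value of Fgf3 without GFP-positive replicate 3 (-10.5) rests on a library at 0 and is no bound. No paired analysis was possible because the fractions share only replicate number 2: a block term leaves no residual degrees of freedom, and a random block correlation could not be estimated.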
